A study of Mus musculus with 2 samples.

Results

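The introns described here were spliced out of long-read transcript models of mouse muscle at a position up to 12 nt from an annotated intron. They were found in models that the annotation software TALON classes as NIC (a new combination of known splice sites) or NNC (at least 1 splice site absent from its catalogue). An intron was kept if it was absent from every Known-class model of both annotations, if 1 end equalled that of a Known-class intron of the strand, and if the other end lay within 12 nt of that intron's end. It also needed 1 or more read in each of the 2 libraries. Of 42761 unannotated introns in NIC or NNC models, 10302 were shifted by up to 12 nt, and 2125 of these had reads in both libraries. These 2125 members were 26.3% of the 8084 unannotated introns with reads in both libraries, where 124144 introns of any kind had such reads. Their absence from the annotation, their small shift and their reads in both libraries are the values they were chosen by, so those are a description and carry no test. The annotated intron is called the partner, the end that moved is called the free end, and a shift above 0 means that the member is the longer intron.

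Total RNA of gastrocnemius, a calf muscle, was sequenced as long reads from male mice aged 10 days of the strain B6CASTF1/J, an F1 hybrid of B6 and CAST. The 2 libraries are biological replicates 1 and 2 of 1 group, from separate biosamples and with 2 µg of RNA each. The design held no treatment, genotype or age contrast, so the question it allows is how far the introns recur in both biological replicates. Replicate 1 held 1145490 reads of mouse transcripts and replicate 2 held 941841. The pipeline document cited in the labels was version 3.1 for replicate 1 and 3.0 for replicate 2, and its effect cannot be told apart from that of the replicate. Summed CPM (reads per 1000000 mouse reads) of 7 skeletal muscle markers was 227745 in replicate 1 and 233313 in replicate 2, against 18609.5 and 10926.5 for 4 fibroblast and matrix markers. Red cell markers stood at 329 and 693 CPM, Schwann cell markers at 910 and 686 CPM, and the remaining marker lists (endothelial, immune, adipocyte, skin) at 127 CPM or less. In bulk tissue, fewer cells of a type and less RNA per cell cannot be told apart.

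An intron begins at a donor site, usually GT, and ends at an acceptor site, usually AG, and the spliceosome joins the flanking exons. Where a second usable site lies a few bases away, 1 gene can make 2 messages that differ by those bases. Acceptors of the form NAGNAG, in which 2 AG letters are 3 nt apart, and donors with a GT 4 nt downstream of the first are the tandem arrangements best known in mammals. In coding sequence, a shift of a multiple of 3 nt adds or removes whole codons, and any other shift changes the reading frame.

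The tandem sites of 8 members at acceptors 3 nt apart are shown because they include the commonest acceptor shift, +3, and the shift with the highest median usage share, acceptor -3. The letters are those of the reference transcripts (GENCODE M21, GRCm38, the mm10 build), 5′ to 3′ on the gene's strand, and the letters of the CAST parent were not used here. Capitals mark the AG of both sites. With a shift of -3 the member ends at the upstream AG and its partner at the downstream one, and with a shift of +3 the order is the other way round.
Pmp22 acceptor -3 (chr11:63133113-63133139, plus strand): ttcctctctcAGcAGgcaccgctcctc
Mybph acceptor -3 (chr1:134200933-134200959, plus strand): tatctcttctAGcAGcttggtcacata
Ewsr1 acceptor -3 (chr11:5079508-5079534, minus strand): ttatccccccAGcAGcgctggagagcg
Srpk3 acceptor -3 (chrX:73776955-73776981, plus strand): tgactctgacAGcAGattggcaagctg
Ap2a2 acceptor -3 (chr7:141611321-141611347, plus strand): tgtcctgcccAGaAGaccctgcggtgc
Cdkn1c acceptor +3 (chr7:143460664-143460690, minus strand): gtacctccgcAGcAGaacagcgatgga
Puf60 acceptor +3 (chr15:76077688-76077714, minus strand): tcctgcctgcAGcAGgtcaatggccaa
Casq1 acceptor +3 (chr1:172213377-172213401, minus strand): cctccaacAGgAGgatgacctggat

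Pairs of read counts are those of replicates 1 and 2. Puf60, Casq1, Srpk3 and Ap2a2 were chosen for display after their values were seen. Srpk3, a muscle kinase of splicing factors, had 69 member reads in replicate 1 and 58 in replicate 2, against 250 and 238 partner reads. Ap2a2, a subunit of the AP-2 clathrin adaptor, had 49 and 27 against 66 and 44. Puf60, a splicing factor, had 14 and 20 against 190 and 178, and Casq1, the calcium buffer calsequestrin, 34 and 29 against 9907 and 7552. Of member plus partner reads, the member at the upstream AG held 40.3% in Ap2a2 and 20.6% in Srpk3. The member at the downstream AG held 8.5% in Puf60 and 0.36% in Casq1.

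A further 4 acceptors show the shifts that change the reading frame, and all were chosen for display after their values were seen except Mpc1. Capitals mark both sites, and in Mpc1 the partner's site reads CT where the member's reads AG. The members of Myh1, Tnnc2 and Atp2a1 held 0.94%, 0.14% and 0.11% of reads, and that of Mpc1 99.5%.
Myh1 acceptor +2 (chr11:67211317-67211342, plus strand): ttcttatcacAGAGagtccatcttct
Tnnc2 acceptor +2 (chr2:164777320-164777345, minus strand): tcttcttcgcAGAGtttctgaagatg
Atp2a1 acceptor +4 (chr7:126448367-126448394, minus strand): ttccgtcttcAGacAGgggatggtgtca
Mpc1 acceptor +8 (chr17:8296516-8296545, plus strand): tcccctctcCTtactgcAGcacttctgggg

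At the donor end, 8 members show the forms found, from a GT 4 nt downstream to one 12 nt upstream. Capitals mark both sites. For a negative shift the member begins at the downstream pair, and for Cdkn1c it begins at the upstream one. Tpm1 and Tnnc2, the fast troponin C, were chosen for display after their values were seen, and their donor -4 members held 0.036% and 0.078% of reads, while that of Idh3g held 96.4%.
Idh3g donor -4 (chrX:73782659-73782686, minus strand): agcatttcctcaGTaaGTacctgccttg
Eif4a2 donor -4 (chr16:23112446-23112473, plus strand): aataaagagcgaGTcgGTatttatattt
Tpm1 donor -4 (chr9:67033860-67033887, minus strand): aagtatgaagagGTcaGTctctgggtcc
Tnnc2 donor -4 (chr2:164777928-164777955, minus strand): tggacgaggatgGTgaGTtgggctcctc
Rpl7l1 donor -5 (chr17:46778035-46778063, minus strand): gagcaggagcagGTgagGCgagtgtgtgc
Mrpl33 donor -8 (chr5:31614012-31614041, plus strand): cgctgtctcttGTaagtcgGTctgaggcgg
Dctn2 donor -10 (chr10:127267473-127267502, plus strand): gtttgatgcgGTaagactgtGTgctacctc
Cdkn1c donor +12 (chr7:143460090-143460119, minus strand): gaggaacagGTccctgagcagGTctctgag

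The members were spread over 1263 genes, and 958 of those genes had exactly 1. The free end was the acceptor in 1151 members (54.2%, 95% Wilson interval 52.0 to 56.3%) and the donor in 974. In 83 members the free site was also a splice site of some other Known-class intron, and in 2042 it was not. The free end lay in coding sequence in 1846 members (86.9%), while 205 had it in a 5′ UTR, 35 in a 3′ UTR and 39 in a noncoding transcript. Internal introns made up 1507, first introns 351 and last introns 253.

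Acceptor shifts were short and mostly lengthened the intron. A shift of +3 was found in 363 members, +2 in 206, +4 in 157, +5 in 96 and +6 in 81, while 82 had a shift of -3. Of all acceptor members, 87.0% (84.9 to 88.8%) were longer than the partner. Donor members held a single dominant form: 421 of 974 (43.2%) had a shift of -4, in which the intron begins 4 nt further downstream. The next donor shifts were +4 with 68 members, +3 with 60 and -2 with 56. Just inside the limit there were 39 members with a shift of 11 nt and 43 with 12 nt. Just outside it there were 23 such introns at 13 nt and 28 at 14 nt, and the median was 3 reads at all 4 of these distances.

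**Figure D1:**
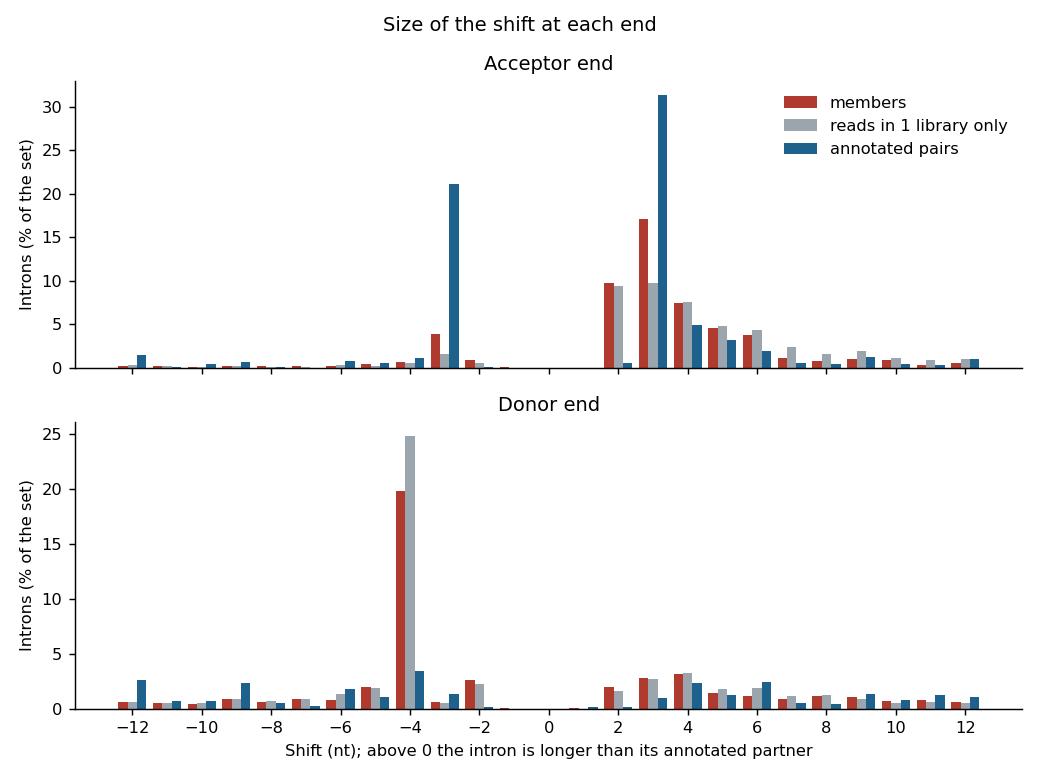
Shift of the free end (x axis, nt, above 0 the intron is longer than its partner) against the percentage of each set (y axis), for the acceptor end (top) and the donor end (bottom). Red bars are the 2125 members, grey bars 8177 shifted introns with reads in 1 library only and blue bars 730 pairs of annotated introns; members peak at +3 for acceptors (17.1% of all members) and at -4 for donors (19.8%). For annotated pairs the shift is that of the intron with fewer reads against the one with more.

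The plot of shift sizes also holds 2 sets for comparison. The first is 8177 shifted introns read in 1 library only, 4893 in replicate 1 and 3284 in replicate 2. The second is 730 pairs of annotated introns that share an end and lie within 12 nt of each other, both read in both libraries. In these pairs the shift is that of the intron with fewer reads against the one with more. Its sign is therefore set by reads, while in members it is set by the annotation. Among members, 19.8% were donor -4 introns, against 24.8% of introns in 1 library only and 3.4% of annotated pairs. Acceptor +3 introns were 17.1% of members, against 9.7% and 31.4% in those sets. Introns with an acceptor shift of -3 were 3.9% of members, 1.6% of introns in 1 library only and 21.1% of annotated pairs. These differences were not tested, since reads in both libraries chose the members.

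Whether a shift was a multiple of 3 nt went with the end that moved, counted over coding and noncoding sequence alike. At the acceptor, 572 of 1151 members (49.7%, 46.8 to 52.6%) had a shift of a multiple of 3 nt, against 1581 of 3986 introns in 1 library only (39.7%, 38.2 to 41.2%) and 435 of 528 annotated pairs (82.4%, 78.9 to 85.4%). At the donor, 183 of 974 members (18.8%, 16.5 to 21.4%) had such a shift, against 18.3% of introns in 1 library only and 102 of 202 annotated pairs (50.5%, 43.7 to 57.3%). Members thus lay between the other sets at the acceptor, and at the donor within the interval of the introns read in 1 library.

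**Figure D2:**
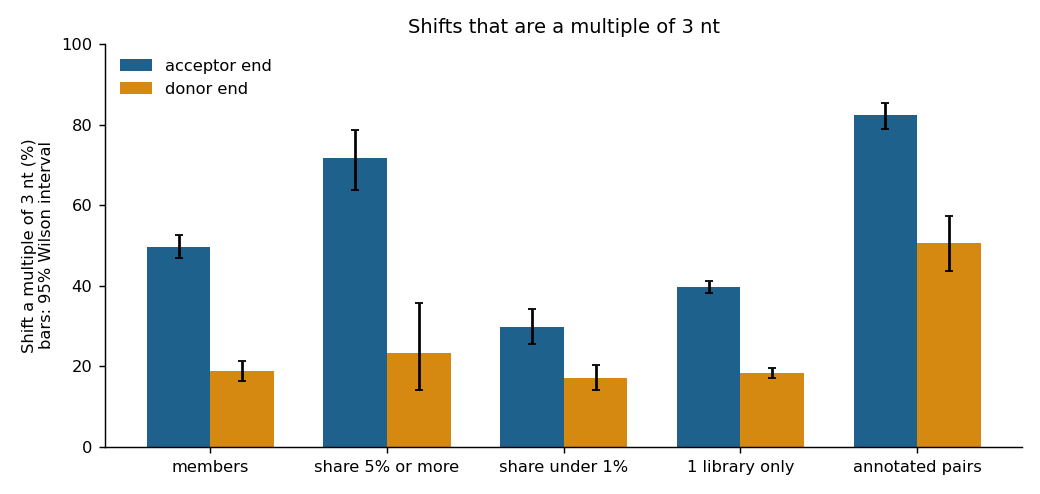
Percentage of introns whose shift is a multiple of 3 nt (y axis; bars are 95% Wilson intervals of counting error) in all members, members by mean usage share, shifted introns with reads in 1 library only, and annotated pairs. Blue bars are acceptor ends and orange bars donor ends; acceptor members with a share of 5% or more stand at 71.7%, those under 1% at 29.7%.

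The letters at the free site could be read from annotated transcripts wherever the site lies in an exon of one. This covered all 1001 acceptor members that are longer than the partner, and 983 of these sites (98.2%) read AG, 17 AT and 1 AC. Of 335 readable sites of longer donor members, 296 (88.4%) read GT and 39 GC. Fewer sites of shorter members could be read, 43 of 150 acceptors and 141 of 637 donors, of which 37 read AG and 131 GT. The remaining 6 acceptors read AT and 10 donors GC. Whether the upstream processing kept only sites with such letters is not given in the sources used here. Partner sites that could be read held AG in 277 of 281 acceptors and GT in 218 of 230 donors.

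Because tandem letters are common, members were also counted per annotated intron that has the letters at that distance. An AG 3 nt inside the exon was present in 6054 of 115857 annotated introns read in both libraries (5.2%), and 351 of these 6054 had a member there (5.8%, 5.2 to 6.4%). For an AG 2 nt inside, 204 of 5959 introns had one (3.4%, 3.0 to 3.9%). The rate was 2.2% at +4, 1.5% at +5, 0.89% at +6 and 0.23% at +7. An AG 3 nt upstream of the annotated acceptor could be read in 251 introns, and 20 of them had a member (8.0%, 5.2 to 12.0%). The intervals of +3 and -3 overlapped as counted, and that of +2 lay below the interval of +3. These denominators keep introns whose counterpart at that distance is itself annotated and so cannot be a member. Annotated acceptor pairs 3 nt apart numbered 229 in which the intron with fewer reads was the longer and 154 in which it was the shorter. A pair of either kind can put its shorter intron in the +3 denominator and its longer intron in the -3 denominator. Both rates are therefore understated, and which of them is higher was not settled.

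The donor end gave another picture for its commonest shift. A GT 4 nt into the intron was present in 8385 of 21526 readable annotated introns (39.0%), and 76 of the 8385 had a member there (0.91%, 0.72 to 1.1%). Introns with an annotated counterpart at the distance were kept in these denominators too. A GT 2 nt inside the exon had a member in 42 of 1108 introns (3.8%, 2.8 to 5.1%), and 1 at 3 nt in 57 of 2325 (2.5%, 1.9 to 3.2%). Donor -4 was therefore the commonest shift by number while its rate per available GT lay below those at +2, +3 and +4 (2.1%, 1.5 to 2.9%).

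**Figure D3:**
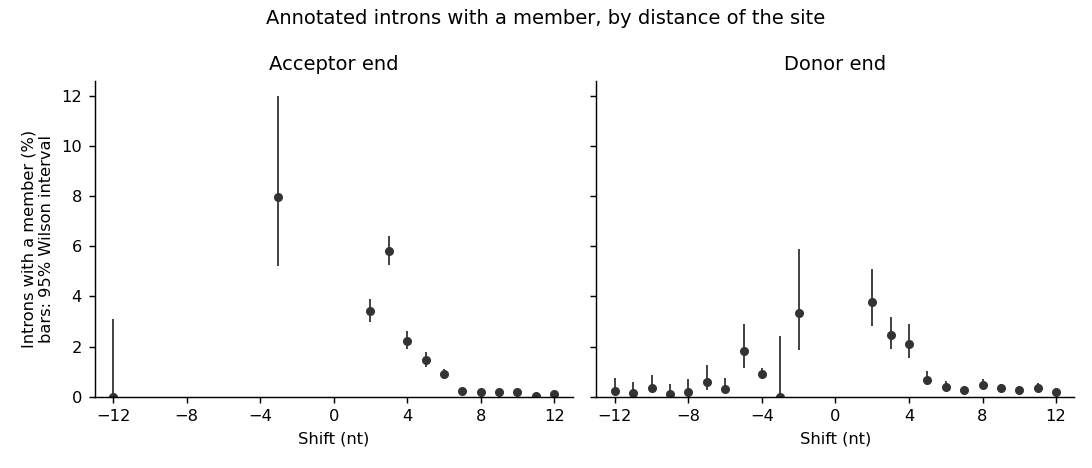
Percentage of annotated introns, among those with an AG (acceptor, left) or GT (donor, right) at that distance, that had a member using it (y axis; bars are 95% Wilson intervals), by shift (x axis, nt). Distances with 100 or more such introns are drawn; the rate is 8.0% at acceptor -3, 5.8% at acceptor +3 and 0.91% at donor -4. Introns whose counterpart at the distance is itself annotated are kept in the denominators, which lowers the rates.

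Reads were few for most members. The median was 3 reads over both libraries, 687 members (32.3%) had exactly 1 read in each, 281 had 5 or more in each and 12 had 100 or more in each. The 20 members with the most reads held 7275 of all 23392 member reads (31.1%). A read with a member made up 1.1% of mouse reads in each library (12547 reads in replicate 1 and 10247 in replicate 2). Summed over members, usage was 0.236% of member plus partner reads in replicate 1 (0.232 to 0.240%) and 0.283% in replicate 2 (0.278 to 0.288%).

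Usage share was measured as member reads over member plus partner reads, in the 1713 members with 20 or more such reads in each library. The median of the mean share was 0.71%. In 1000 members the mean share was under 1%, in 519 it was 1 to 5%, in 101 it was 5 to 10%, in 77 it was 10 to 50% and in 16 it was over 50%. Shares of both libraries followed each other, with Pearson r = 0.95 for log10 shares across the 1713 members, a description only, since libraries share the rule and each member's partner depth. The median SD between the libraries was 0.14 points over all of these members, most of which have low shares. For the 194 members at 5% or more the median difference was 3.7 points and the largest 27.3 points.

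**Figure D4:**
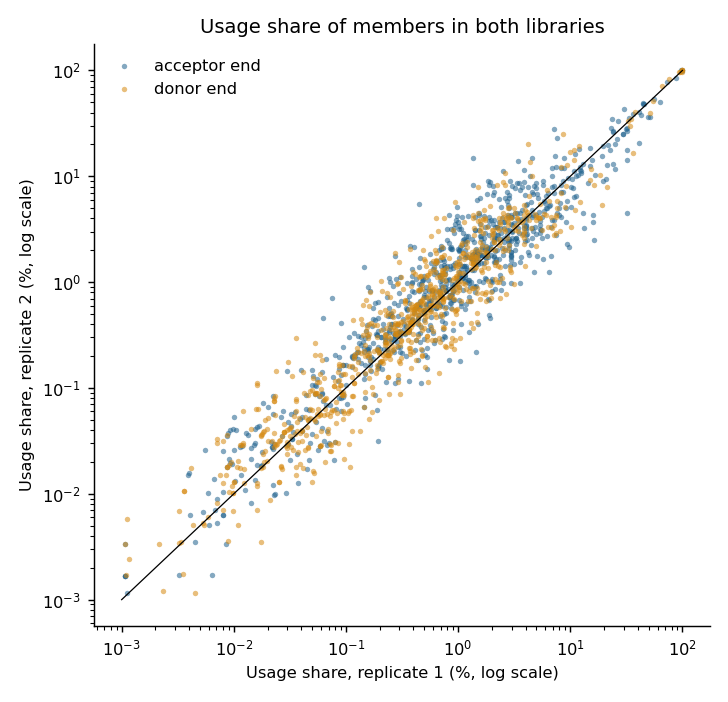
Usage share in replicate 1 (x axis, %, log scale) against replicate 2 (y axis, %, log scale), 1 point per member with 20 or more member plus partner reads in each library, blue for acceptor and orange for donor ends; the line marks equal shares. Points follow the line from about the lowest shares up to 100%, and the 95% Wilson intervals of the libraries overlap in 1707 of 1713 members. Most members have few reads and so wide intervals for their share, and the overlap is given without a value over all introns. It does not show equal usage in both libraries.

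Which shares could be seen depended on depth. Among annotated introns with 20 to 100 reads in each library, 1.8% had a member and its median share was 2.7%. With 100 to 1000 reads, 7.9% had one (0.57%), with 1000 to 10000 reads 47.0% (0.066%), and with 10000 or more reads 53 of 58 introns had one (0.012%). A low share was therefore detectable only in abundant transcripts.

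Members used in 5% or more of reads were more often acceptors with shifts of a multiple of 3 nt than members of low share, a difference described here by counts and intervals and not tested. Of 194 such members, 138 (71.1%, 64.4 to 77.1%) were acceptors, against 438 of 1000 members under 1% (43.8%, 40.8 to 46.9%). Among these acceptors, 99 of 138 (71.7%, 63.7 to 78.6%) had a shift of a multiple of 3, against 130 of 438 (29.7%, 25.6 to 34.1%) under 1%. At the donor the values were 13 of 56 (23.2%, 14.1 to 35.8%) and 96 of 562 (17.1%, 14.2 to 20.4%), with overlapping intervals. In coding sequence the multiple-of-3 share was 94 of 145 (64.8%) at 5% or more and 213 of 945 (22.5%) under 1%. Within 1 depth class, 100 to 1000 reads in each library, it was 18 of 24 (75.0%, 55.1 to 88.0%) at 5% or more, 52 of 130 (40%, 32.0 to 48.6%) at 1 to 5% and 115 of 475 (24.2%, 20.6 to 28.3%) under 1%. The 20 to 100 read class gave 62.8%, 37.2% and 26.9% in the same order. In 5′ UTRs the multiple-of-3 share was also higher at 5% or more (15 of 36, 41.7%) than under 1% (9 of 46, 19.6%). On few members it was lower in 3′ UTRs (2 of 8 and 3 of 7) and noncoding transcripts (1 of 5 and 1 of 2). Over all members it was 35.97% in coding sequence and 35.12% in 5′ UTRs. The difference was therefore not seen in coding sequence alone, and regions were not tested against each other.

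Of the shifts with 10 or more members of that depth, acceptor -3 had the highest median. Its median share was 6.8% over 36 members, and 20 of them reached 5%. Donor -8 followed with 3.1% over 11 members. Acceptor +3 members had a median of 2.4% over 246 members, with 68 at 5% or more. Only 1 of 194 acceptor +2 members and 13 of 384 donor -4 members reached 5%, with medians of 0.78% and 0.38%.

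Some members were the main intron in both libraries. Vdac3, a channel of the outer mitochondrial membrane, had 448 reads in replicate 1 and 514 in replicate 2 for an intron (chr8:22583737-22587548, coding) whose donor lay 1 nt from the nearest annotated one, which had 0 reads in either library. Another annotated donor, 4 nt away, had 48 and 52 reads. Of all intron reads that share a splice site with it, the member held 90.3% in replicate 1 and 90.8% in replicate 2. Pitpna, a phosphatidylinositol transfer protein, had 221 and 178 reads at a donor shifted by +5, with 0 partner reads in both. Mrpl33, a mitochondrial ribosomal protein, had 116 and 167 reads at donor -8, again with 0 partner reads. A share of 100% for these 3 members and for Map4k5, a kinase (39 and 42 reads), therefore rests on an unread partner.

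Idh3g encodes a subunit of mitochondrial isocitrate dehydrogenase. Its donor -4 intron (chrX:73782104-73782670, in a noncoding transcript) had 247 reads in replicate 1 and 229 in replicate 2, against 10 and 8 for the partner, a share of 96.4% ± 0.36 (SD, n = 2). Mpc1, a subunit of the mitochondrial pyruvate carrier, had 179 and 225 reads at acceptor +8 against 1 and 1 for its partner, 99.5% ± 0.080. With NIC, NNC and Known models only, the Mpc1 share was 89.7%. In Ampd1, the muscle AMP deaminase, the donor -6 intron had 144 and 104 reads against 44 and 22, which is 76.6% in replicate 1 and 82.5% in replicate 2. Idh3g, Mpc1 and Ampd1 were named for their many reads or high shares. Over the energy list as a whole, which does not hold Mpc1, 3 of 178 members reached 5%.

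Cdkn1c, an imprinted inhibitor of cyclin-dependent kinases, had 3 members. At the acceptor +3 site of its first intron (chr7:143460676-143460852, 5′ UTR) there were 428 and 423 member reads against 1364 and 1195 partner reads, 25.01% ± 1.6 (SD, n = 2). Another acceptor of that donor, annotated and 41 nt from the member, had 435 and 365 reads. At its donor +12 site (chr7:143460027-143460110, coding) there were 167 and 138 reads against 11 and 6, 94.8% ± 1.4. That intron lies between the first and the last intron of the gene, where the counts were far higher. Its share leaves out reads that splice out neither the member nor its partner, so it is not a share of all Cdkn1c reads. The remaining member, at acceptor +5 (chr7:143459017-143459111, 3′ UTR), had 74 and 53 reads against 2235 and 2013, 2.9% ± 0.45, and was chosen after its values were seen. The Wilson intervals of the 3 members of Cdkn1c did not overlap in either library.

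Pmp22, a membrane protein of myelin that is also made outside nerves, had 365 and 235 reads at acceptor -3 (chr11:63129151-63133124, 5′ UTR) against 132 and 69, 75.4% ± 2.7. Measured over every intron that shares a site, the Pmp22 share was 47.5% in replicate 1 and 50.2% in replicate 2, since the upstream AG is also the acceptor of an annotated intron with another donor, read 259 and 155 times. Dctn2, a subunit of the dynactin motor complex, had 140 and 84 reads at donor -10 against 75 and 33, 68.5% ± 4.7. In the 3′ UTR of Eif4a2, an RNA helicase of translation initiation, the donor -4 intron had 11 and 12 reads against 8 and 4, 66.5% ± 12.1, on 19 and 16 member plus partner reads, under the minimum of 20 used above. Its share was 4.3% and 5.0% once an annotated intron with 238 and 225 reads at the same acceptor was counted. Map7d1, a microtubule-associated protein, had 111 and 57 reads at donor +9 against 214 and 135, 31.9% ± 3.2. Over every intron that shares a site, the Map7d1 share was 25.34% and 21.35%, with another annotated intron at the member's donor read 113 and 75 times. Rpl7l1, related to a ribosomal protein, had 28 and 18 at donor -5 against 52 and 34, 34.8% ± 0.27. The Wilson intervals of both libraries overlapped in Eif4a2, Map7d1 and Rpl7l1. Fam114a2 had 60 and 56 reads at acceptor -3 against 9 and 10, 85.9% ± 1.5.

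Nrap, Mybph and Myot, genes of the sarcomere, had named members at acceptors shifted by -3. Nrap, an anchoring protein of myofibril assembly (chr19:56382368-56384058, coding), had 105 and 51 reads against 152 and 75, which is 40.9% in replicate 1 and 40.5% in replicate 2. Mybph, a myosin-binding protein (chr1:134200448-134200944, 3′ UTR), had 83 and 53 against 177 and 132, 30.3% ± 2.3. Myot, the Z-disc protein myotilin, had 75 and 103 against 714 and 968, 9.6% ± 0.079. In Srl, the calcium-binding sarcalumenin, an acceptor +3 intron had 123 and 43 against 936 and 379, 10.9% ± 1.0. Over every intron that shares a site, the Srl share was 9.0% and 7.0%, with an annotated intron at the member's acceptor read 313 and 187 times. Ewsr1, an RNA-binding protein, had 60 and 53 against 118 and 96 at acceptor -3, 34.6% ± 1.3. The Wilson intervals of both libraries overlapped at each of these 5 members.

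The shares were lower in the abundant muscle genes. Atp2a1, the calcium pump of the sarcoplasmic reticulum, had 216 and 138 reads at acceptor +3 against 92140 and 58472 partner reads, 0.23% in replicate 1 and 0.24% in replicate 2. Its named donor +2 and donor -4 members (chr7:126453126-126453363 and chr7:126457200-126457903) stood at 0.18% and 0.14% of reads, and 5 further donor -4 members of Atp2a1 lay between 0.0033% and 0.098%. Myh4, the fast myosin heavy chain, had 267 and 73 reads at acceptor +2 against 22599 and 5034, 1.2% and 1.4%. With NIC, NNC and Known models only, the Myh4 share was 0.69%, against 1.3% with every class. The acceptor +2 member of Myh1, another fast myosin heavy chain, had 67 and 33 reads, 0.83% and 1.0%. Tpm1, a tropomyosin of the thin filament, had 124 and 86 reads at acceptor +2, 0.52% ± 0.033. Eno3, the muscle enolase, had 202 and 253 reads at donor -4 against 9906 and 9450, 2.0% in replicate 1 and 2.6% in replicate 2. That was a member whose Wilson intervals did not overlap, though its adjusted p was 1 (Fisher's exact test, Benjamini-Hochberg).

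**Figure D5:**
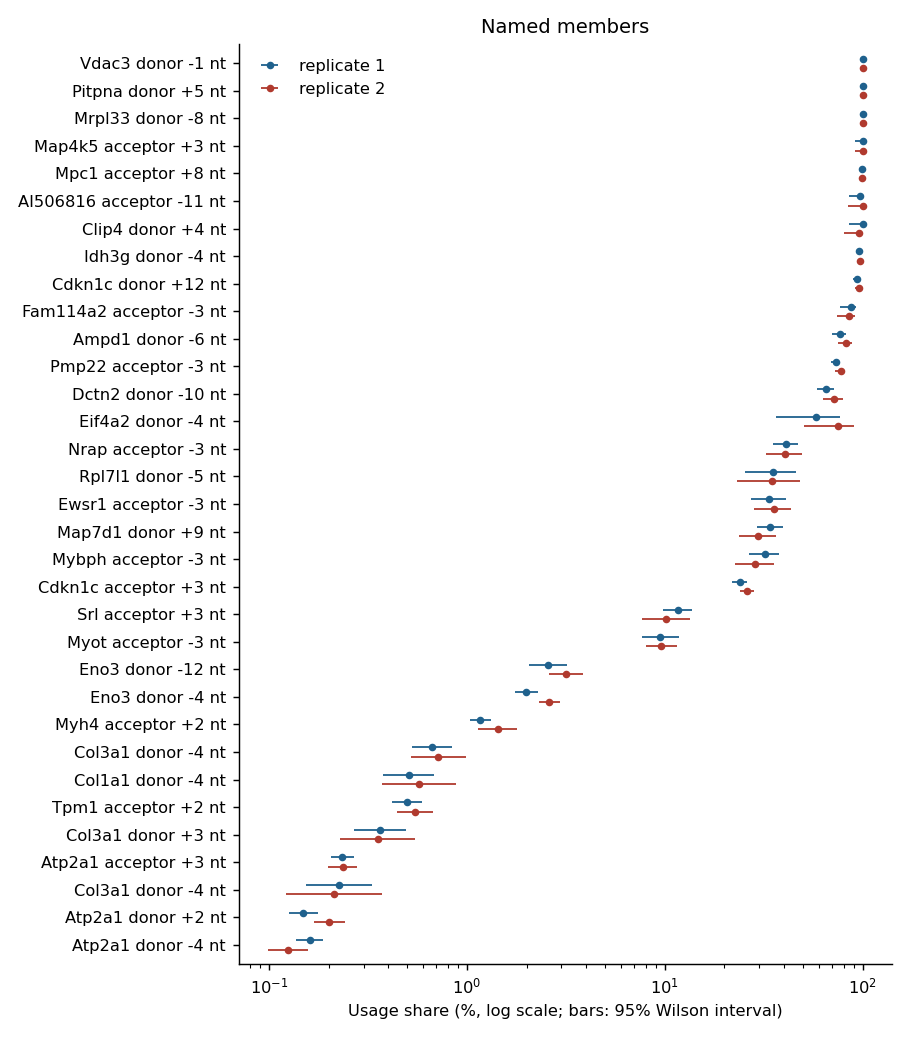
Usage share (x axis, %, log scale; bars are 95% Wilson intervals) of the 33 members named by the rule, blue for replicate 1 and red for replicate 2, sorted by mean share. Shares run from 0.14% in Atp2a1 to 100% in members whose partner had 0 reads, and the intervals of the libraries overlap at each member except the donor -4 intron of Eno3. Eif4a2, with 57.9% and 75%, rests on under 20 member plus partner reads in each library.

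In the matrix genes, a donor -4 member of Col3a1, a fibrillar collagen chain (chr1:45332031-45332134, coding), had 73 and 37 reads against 10899 and 5133, 0.69% ± 0.036. A second Col3a1 donor -4 member had 26 and 12 reads (0.22%), its donor +3 member 42 and 20 (0.36%), and a Col1a1 donor -4 member 43 and 20 (0.54%). All 4 shares were under 1% in both libraries. Of the remaining named members, Clip4 had 22 and 24 reads at donor +4 against 0 and 1, AI506816 33 and 20 at acceptor -11 against 1 and 0, and Eno3 79 and 95 at donor -12 against 2998 and 2900 (2.9% ± 0.43).

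How many members a gene had went with its reads. A member was found in 8.2% of genes with 20 to 100 reads over both libraries, in 25.7% with 100 to 1000, in 73.7% with 1000 to 10000 and in 19 of 19 with 10000 or more. Atp2a1 and Col1a1 (a fibrillar collagen chain) had 38 members each, Col3a1 36, Myh4 32 and Mybpc2 30. In Atp2a1 they covered 21 partner introns, with 16 acceptor and 22 donor members, and in Col1a1 30 partner introns with 5 acceptor and 33 donor members. Of 54 contractile genes 32 had a member (234 members), of 28 calcium-handling genes 11 (77), of 54 energy genes 40 (178) and of 24 matrix genes 10 (102). Of 59 RNA-processing genes 13 had one (20 members), and 28 translation genes did (39 members). The median share was 0.070% in contractile, 0.047% in calcium-handling, 0.096% in energy and 0.071% in matrix genes, against 1.3% in RNA-processing and 0.81% in translation genes and 0.71% over all members. Members at 5% or more numbered 4, 4, 3, 0, 4 and 2 in that order. Atp2a1 alone had 94265 and 59968 reads, and the part of depth in these medians was not tested.

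Between the replicates, single members were compared by the criterion used for all introns. Intron usage within its splice-site group (all introns that share its donor or acceptor) was compared by a two-sided Fisher's exact test with Benjamini-Hochberg adjustment over 47221 introns. Calls needed an adjusted p under 0.05 and a difference of 10 points. Of 1789 members with 20 or more group reads in each library, 0 were called, where 0.0148% of all introns were (7 of 47221). A difference of 10 points was out of reach for a member with a mean usage share under 5%. Of the 1713 members with a measured share, 1000 had under 1% and 519 had 1 to 5%. The 0 calls therefore do not show equal usage in both libraries. An adjusted p under 0.05 at any difference was found for 0 members and for 0.0339% of all introns (16). At an unadjusted p under 0.05 there were 27 of the 1789 members, beside 680 of all 47221 introns. The smallest adjusted p of a member was 0.762. Shares leaned to replicate 2 in common: 695 of the 1789 members were higher in replicate 1, against 24177 of all 47221 introns, and the intervals of the summed usage given above did not overlap. Members needed 1 or more read in each library, all introns did not, and replicate 2 held fewer intron reads (8292313 against 12002592). A member at that minimum tends to a higher share in replicate 2, so this lean cannot be told apart from the rule. The test compares 2 libraries, the p-values cover counting error, and the members had to have a read in each library. Mlxipl, chosen after its values were seen, had the largest difference: 7 of 22 group reads in replicate 1 and 1 of 22 in replicate 2, a difference of 27.3 points at an adjusted p of 1.

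The class of the models that carry a member was not always the same in both libraries. Only reads in NIC and NNC models were compared for this, and reads of a member in models of other classes were left out. More lay in NNC models for 1662 members in replicate 1 and 1694 in replicate 2. NIC models held more for 317 and 293, and 146 and 138 members were ties. For 256 members (12.0%) the class was NIC in 1 library and NNC in the other, 137 with NIC in replicate 1 and 119 with NIC in replicate 2. Members of Mpc1, Myh4 and Nrap and 2 members of Atp2a1 were among them. Members with NIC as the main class outnumbered the 83 whose free site occurs in some other Known-class intron.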

How the data were processed

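Total RNA of gastrocnemius was sequenced as long reads in 2 libraries, and the deposited tables give raw read counts per transcript model, with no normalization by the authors. Per the labels and the deposited descriptions, the assembly was mm10 and models were annotated against GENCODE M21, and the annotations carry TALON classes. The sources used here give no aligner or version. Members and gene lists were chosen with earlier results of these data known.

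Counts of all models holding an intron were summed per library. The partner was the Known-class intron with the smallest shift, ties going to the most reads. Intervals are 95% Wilson intervals and cover counting error only, since PCR reads are not independent molecules. Replicates come from separate biosamples of 1 group. Introns with 20 or more reads in their splice-site group in each library were compared by a two-sided Fisher's exact test with Benjamini-Hochberg adjustment. The procedure was tried on simulated reads with large differences placed only in introns of intermediate share. Most members have lower shares, so that trial does not cover them. Site letters came from GENCODE M21 transcript sequences, which hold intron letters only where another transcript covers them.

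Members were named if they had the 20 most reads, the 10 highest shares, a call, 10 or more reads in each library in a listed gene (4 per list), or different classes (5), and the 5 genes with the most members were named. Others are said to be chosen after their values were seen. Alternatives changed the shift limit, read minimum, model classes, denominator and libraries. Python 3.11.15, numpy 2.4.6, scipy 1.17.1, pandas 2.3.3 and matplotlib 3.10.9 were used.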

Additional observations from a re-analysis of the deposited data

How the results depend on the processing

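The number of members depended mainly on the read minimum. Against 2125 members, there were 771 with 2 reads in each library, 281 with 5 and 872 from NIC models only, while a single library alone gave 5409 to 7018. Limits of 6 and 24 nt gave 1811 and 2430. The acceptor share of 54.2% became 59.4% with 5 reads in each library, 56.9% with a 6 nt limit, and 49.8 to 51.6% without either replicate. The share of acceptor shifts that are a multiple of 3 nt, 49.7%, became 55.1% with 5 reads and 43.3 to 43.4% without either replicate, while the donor share of 18.8% stayed between 16.7% and 18.5%. Over all introns, 7 calls became 16 at any difference and 21 with NIC, NNC and Known models only. The members called numbered 0 under each alternative run. Of 33 named members, the share of 15 moved by more than the replicate spread when all introns sharing a splice site formed the denominator, and of 6 with NIC, NNC and Known models only. The cause was not tested. No paired analysis was possible because the libraries form 1 group.

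Most members rest on few reads, so shares under 1% can be seen only where the partner is deep, and a share of 100% says only that the partner was not read. Each library is 1 biological replicate, and document version differs with the replicate. Site letters are those of the reference and were readable in part of the introns.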
